A study of Arabidopsis thaliana with 6 samples.

Results

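Transcripts of 7 Arabidopsis thaliana genes that turn stored fat into sugar were compared between seedlings pretreated with ethylene and seedlings pretreated with air. The genes come from a list of 8 loci drawn up by function, with earlier results of these data known. The 7 described are SDP1 (AT5G04040), ACX4 (AT3G51840), MFP2 (AT3G06860), KAT2 (AT2G33150), ICL (AT3G21720), MLS (AT5G03860) and PCK1 (AT4G37870). All 8 were found among 32833 loci after counts had been summed over the transcripts of each locus. The ethylene group (3 libraries) was Columbia seedlings that germinated for 3 d in darkness in 0.7 ppm ethylene. The air group (3 libraries) was Columbia seedlings that germinated for 3 d in darkness with no ethylene. Every seedling then grew for 5 d in light with no ethylene before RNA was taken. The comparison thus shows which transcripts differed days after the gas was gone. No earlier time was sampled, so whether these transcripts already differed during the ethylene treatment was not tested. The tissue was seedlings, with no organ separated, and the labels do not say how many seedlings made a sample or whether the replicates were grown separately. All p-values thus refer to how far these libraries spread around their group means, and part of that spread may come from the technique.

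An Arabidopsis seed stores much of its carbon as triacylglycerol in lipid droplets, and the seedling lives on it until its leaves photosynthesize. Lipases release fatty acids, which enter the peroxisome and are shortened by beta-oxidation to acetyl-CoA. The glyoxylate cycle joins acetyl-CoA units into 4-carbon acids, and phosphoenolpyruvate carboxykinase starts their conversion to sugar. Many genes of this route are known to be most active in the days around germination. In bulk RNA, fewer cells of a type and less RNA per cell cannot be told apart.

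Of the 6 members described here that could be tested, SDP1, ACX4 and ICL were lower after ethylene and PCK1 was higher. ICL, the enzyme that splits isocitrate in the glyoxylate cycle, fell to 0.242 of the air level, and PCK1 rose to 1.63 times the air level. KAT2 and MFP2 did not pass the test, and MLS had too few counts to enter it. The test was edgeR's quasi-likelihood F-test with TMM scaling, which sets each library's level by the bulk of its genes, and a gene was called at a Benjamini-Hochberg adjusted p under 0.05 over all 17887 loci tested. That test called 32.6% of all loci, 15.8% higher and 16.8% lower. The 4 calls among 6 members are to be read against that background.

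The stretches that precede the 4 called genes are shown because these genes moved in opposite directions. Each is 300 bases that end at the base before the annotated start of the gene, read 5′ to 3′ on the gene's strand from the RefSeq genome of build TAIR10.1. Capitals mark the motif TATCCA, a sugar-response element known from cereal amylase promoters, searched on both strands.
SDP1 (chr5:1089042-1089341, plus strand): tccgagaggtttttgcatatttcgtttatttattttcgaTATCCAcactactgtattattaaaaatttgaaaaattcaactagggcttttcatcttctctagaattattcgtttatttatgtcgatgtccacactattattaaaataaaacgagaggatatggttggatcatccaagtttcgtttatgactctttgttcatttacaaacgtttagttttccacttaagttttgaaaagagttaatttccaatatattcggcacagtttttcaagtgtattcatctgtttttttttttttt
ACX4 (chr3:19229342-19229641, minus strand): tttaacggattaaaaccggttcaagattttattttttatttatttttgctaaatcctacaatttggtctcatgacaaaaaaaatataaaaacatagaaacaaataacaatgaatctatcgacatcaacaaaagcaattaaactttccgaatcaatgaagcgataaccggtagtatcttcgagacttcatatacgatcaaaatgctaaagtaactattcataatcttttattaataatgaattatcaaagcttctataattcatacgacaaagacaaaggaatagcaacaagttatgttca
ICL (chr3:7656054-7656353, minus strand): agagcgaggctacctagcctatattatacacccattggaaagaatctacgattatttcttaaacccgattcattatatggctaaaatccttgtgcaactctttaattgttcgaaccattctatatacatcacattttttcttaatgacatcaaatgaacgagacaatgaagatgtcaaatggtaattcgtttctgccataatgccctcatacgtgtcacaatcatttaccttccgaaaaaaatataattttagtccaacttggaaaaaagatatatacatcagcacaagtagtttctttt
PCK1 (chr4:17806706-17807005, minus strand): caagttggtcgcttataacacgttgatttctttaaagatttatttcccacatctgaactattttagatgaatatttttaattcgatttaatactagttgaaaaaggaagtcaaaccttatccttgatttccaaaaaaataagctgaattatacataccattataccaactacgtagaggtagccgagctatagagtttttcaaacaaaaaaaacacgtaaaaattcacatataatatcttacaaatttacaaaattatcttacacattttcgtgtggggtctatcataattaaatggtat
Among the 7 members, TATCCA occurred in the windows of SDP1, 261 bases before the gene start, and of MFP2, 8 bases before it on the other strand. Over 27443 protein-coding genes, 16.2% of such windows held it. The G-box CACGTG, which reads the same on both strands, was in none of the 7 windows and in 7.1% of all windows. With no G-box present, the motifs had no overlap. A match is a description of the letters and no evidence of a bound factor. The windows of these 4 genes overlapped no other annotated gene, and their G and C content was 28.3% for SDP1, 27.0% for ACX4, 33.0% for ICL and 28.0% for PCK1.

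SDP1 encodes the patatin-type lipase that begins the breakdown of triacylglycerol in germinating seeds. Its level was 3.74, 8.02 and 5.88 CPM (counts relative to the library's TMM-scaled total) in the ethylene libraries, against 14.2, 10.9 and 16.8 CPM in the air libraries. All ethylene libraries lay below all air libraries, and ethylene replicate 1 was the lowest. The groups did not overlap for 4 of the 6 tested members, and for 47.7% of all loci tested. The log2 fold change was -1.24 ± 0.26 (SE, n = 3 per group; edgeR adjusted p = 0.00551). These levels rest on 58, 137 and 106 counts in ethylene and 206, 133 and 220 counts in air, so the counting error is larger here than for the abundant members. SDP1 has 2 transcripts in the files, and transcript 1 held 85.5% of the counts. Fitted alone, transcript 1 gave -1.20 ± 0.29 (edgeR adjusted p = 0.0107) and transcript 2 one of -1.47 ± 0.40 (edgeR adjusted p = 0.0184), each adjusted over all transcripts, of which 30.5% were called.

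MLS, the member with the fewest counts, and SDP1 each have 2 transcripts that share most of their sequence. MLS transcript 1 has 150 bases of its own out of 2025 and held 54 counts, and transcript 2 has 29 bases of its own and held 0. Over all loci with more than 1 transcript and at least 1 count, 90.9% of the 11477 transcripts with no base of their own had no count, against 2.1% of the 3020 transcripts with 300 or more. Levels of MLS and SDP1 are therefore not comparable with those of the 5 members that have 1 transcript. How reads shared by transcripts were handled is not given in the sources used here.

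**Figure D1:**
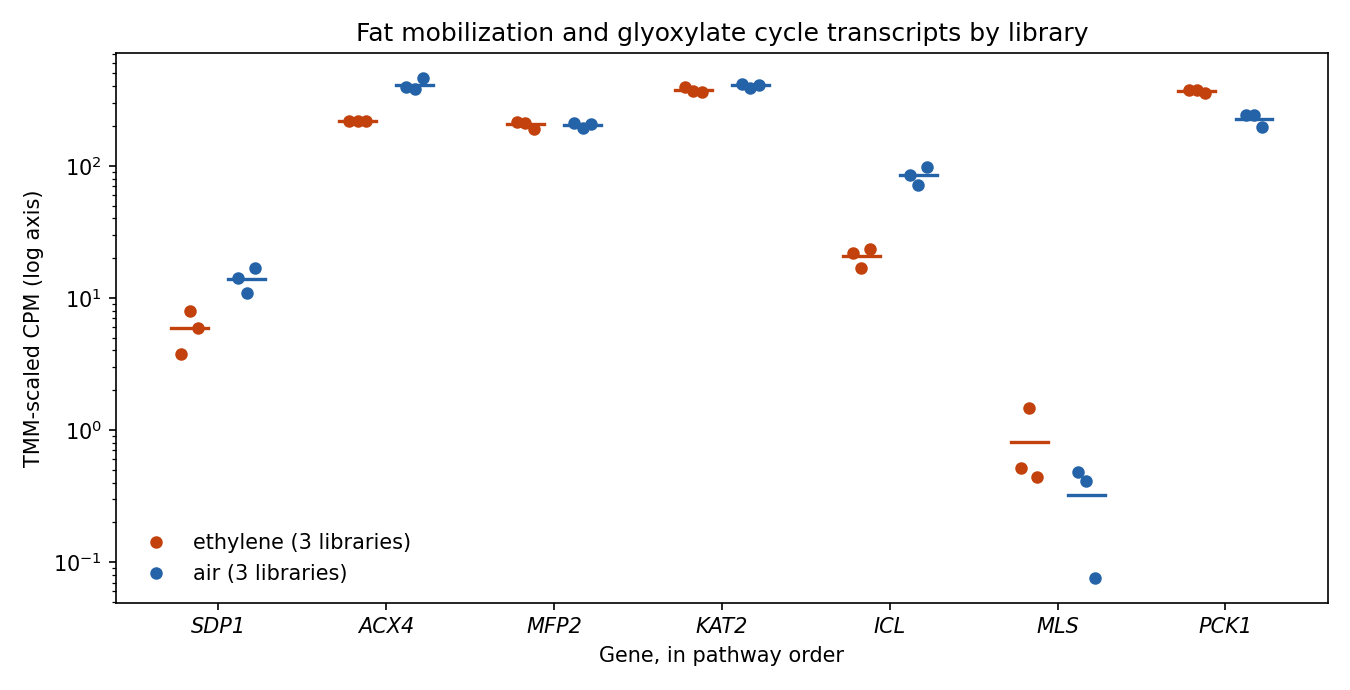
TMM-scaled CPM on a log axis for each of the 7 members, ordered along the pathway, with 3 ethylene libraries left of 3 air libraries and a bar at each group's mean. ICL, ACX4 and SDP1 lie lower in ethylene and PCK1 higher, with no overlap between groups, whereas MFP2, KAT2 and MLS overlap.

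The acyl-CoA oxidases open each round of beta-oxidation, and ACX4 is the one that prefers short acyl chains. ACX4 had 217.2, 216.5 and 218 CPM in the ethylene libraries, against 395, 379 and 462 CPM in the air libraries. The ethylene libraries were nearly equal, with an SD of 0.963 CPM, and all lay below the air libraries, of which air replicate 3 was highest. The log2 fold change was -0.92 ± 0.09 (SE, n = 3 per group; edgeR adjusted p = 6.61e-05). The levels rest on 11004 counts in ethylene and 16411 counts in air.

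MFP2 encodes the multifunctional protein that hydrates and then oxidizes the acyl chain. It had 215, 211 and 190.5 CPM in the ethylene libraries, against 212, 194 and 206 CPM in the air libraries, and the groups overlapped. The log2 fold change was 0.01 ± 0.08 (SE, n = 3 per group; edgeR adjusted p = 0.941), with a 95% interval from -0.17 to 0.19. KAT2, also named PKT3, is the thiolase that releases acetyl-CoA at the end of each round. It had 395, 366 and 364 CPM in the ethylene libraries, against 417, 389.9 and 412 CPM in the air libraries. Its log2 fold change was -0.11 ± 0.07 (SE, n = 3 per group; edgeR adjusted p = 0.267), with a 95% interval from -0.28 to 0.05. A change of either gene as large as that of ACX4 lies outside these intervals on the TMM scale.

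Isocitrate lyase, encoded by ICL, and malate synthase, encoded by MLS, are the enzymes that set the glyoxylate cycle apart from the citric acid cycle. ICL had 21.7, 16.9 and 23.4 CPM in the ethylene libraries, against 85.7, 71.8 and 98.4 CPM in the air libraries. All ethylene libraries lay far below all air libraries, and ethylene replicate 2 was the lowest. The log2 fold change was -2.04 ± 0.15 (SE, n = 3 per group; edgeR adjusted p = 1.71e-05), the largest change of the 6 tested members. MLS had 8, 25 and 8 counts in the ethylene libraries, against 7, 5 and 1 counts in the air libraries, and did not pass the filter on low counts. Ethylene replicate 2 held 25 of the 41 ethylene counts, and the groups overlapped. Fitted with no filter, MLS gave a log2 difference of 1.29 ± 0.71 (SE, n = 3 per group; adjusted p by edgeR = 0.227), opposite in sign to that of ICL.

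PCK1 encodes phosphoenolpyruvate carboxykinase, which makes phosphoenolpyruvate from oxaloacetate and so opens gluconeogenesis from fat and protein. It had 376, 376 and 356 CPM in the ethylene libraries, against 242, 243 and 196 CPM in the air libraries. All ethylene libraries lay above all air libraries, and air replicate 3 was the lowest. The log2 fold change was 0.70 ± 0.09 (SE, n = 3 per group; edgeR adjusted p = 0.000425). PCK1 and ICL were called in opposite directions in the same libraries.

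Per kilobase of transcript, the order of levels among the 5 members with 1 transcript differed between the groups. In ethylene libraries KAT2 was highest at 175 ± 8.21 CPM per kilobase, followed by PCK1 at 143 ± 4.44, ACX4 at 112 ± 0.497, MFP2 at 75.7 ± 4.86 and ICL at 9.34 ± 1.53 (SD, n = 3). In air libraries ACX4 stood at 213 ± 22.8 CPM per kilobase and KAT2 at 189.6 ± 6.68, a gap about as large as the ACX4 SD, followed by PCK1 at 87.9 ± 10.3, MFP2 at 75.1 ± 3.36 and ICL at 38.5 ± 5.99 (SD, n = 3). PCK1 and MFP2 were neighbours in air with a gap of about their spread, and well apart in ethylene. These are levels, not differences, and no test was made between genes.

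The authors' deposited table gives the same direction for each of the members called here. It rests on the counts of these same libraries, so it is no independent evidence. For ICL the authors' deposited table lists a log2 fold change of -2.04 with an adjusted p of 6.05e-34, for ACX4 -0.92 with 1.7e-15, and for PCK1 0.70 with 7.54e-09. For the SDP1 transcripts the authors' deposited table lists -1.20 with an adjusted p of 0.000288 and -1.49 with 0.0121. Among the plant transcripts to which the authors gave an adjusted p, 30.3% were under 0.05.

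Of 10 paralogs of the members, 8 were tested, and on the TMM scale ACX6 was called and the other 7 were not. Over all loci tested, 32.6% were called. The median log2 fold change was 0.06, against 0.02 over all loci tested. With spike-in scaling 6 paralogs were called higher, as were 7160 of all 17887 loci tested. Their median on that scale was 0.52, against 0.47 over all loci. The other acyl-CoA oxidases of known substrate range, ACX1 for medium to long chains, ACX2 for long chains and ACX3 for medium chains, had log2 fold changes of 0.01 ± 0.12, 0.05 ± 0.30 and 0.07 ± 0.08. ACX5, close kin of ACX1, had -0.05 ± 0.10. ACX6 rose by 2.06 ± 0.56 (SE, n = 3 per group; edgeR adjusted p = 0.0182), at 1.74, 2.23 and 1.16 CPM in the ethylene libraries, against 0.483, 0.655 and 0.0762 CPM in the air libraries. ACX6 held 86 counts in ethylene and 16 in air, and its call was lost without ethylene replicate 1 (edgeR adjusted p = 0.0508) or ethylene replicate 2 (edgeR adjusted p = 0.0751). AIM1, the other multifunctional protein, had 0.04 ± 0.07, and the thiolases KAT1 and KAT5 had 0.20 ± 0.14 and 0.37 ± 0.26. SDP1L, a close relative of SDP1, had 24 counts in ethylene and 16 in air, and PCK2 had 11 in ethylene and 21 in air, and neither was tested. Whether ACX4 differed from its paralogs in response was not tested.

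**Figure D2:**
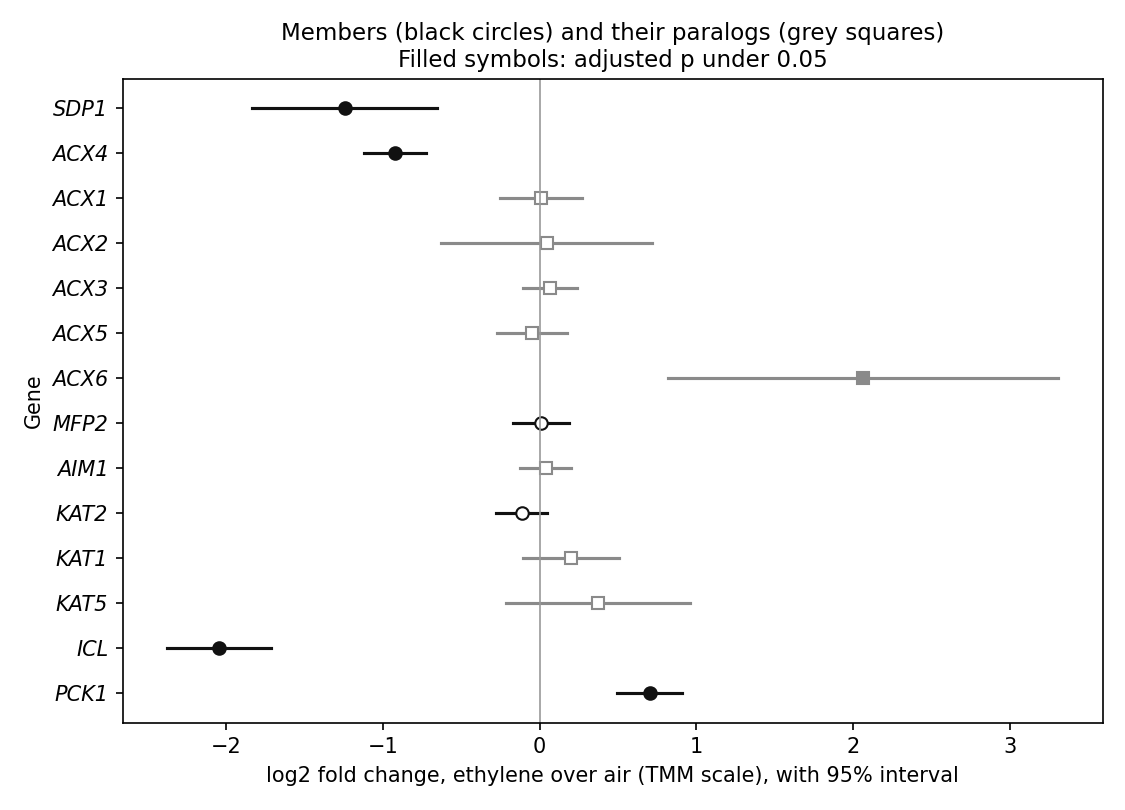
Log2 fold change of ethylene over air on the TMM scale for the 6 tested members (black circles) and their 8 tested paralogs (grey squares), with 95% intervals as lines and filled symbols for an adjusted p under 0.05. ACX4 lies at -0.92, while ACX1, ACX2, ACX3 and ACX5 lie between -0.05 and 0.07.

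Scaling mattered for the small changes. The log2 ratio of spike-in counts to TMM-scaled plant counts differed by -0.45 between ethylene and air (SD 0.20 in ethylene and 0.09 in air, n = 3 each). Scaling on them moved the median of all loci to 0.47. On that scale ICL (-1.60), SDP1 (-0.81) and ACX4 (-0.47) were still lower and PCK1 (1.16) higher, with edgeR adjusted p-values of at most 0.0289 for the 4. MFP2 became higher, with 0.47 (edgeR adjusted p = 0.0281), and KAT2 had 0.34 without a call. The order of the members was the same on each of these scales. Since a change of scale moves all loci by about the same amount, this is no separate result.

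**Figure D3:**
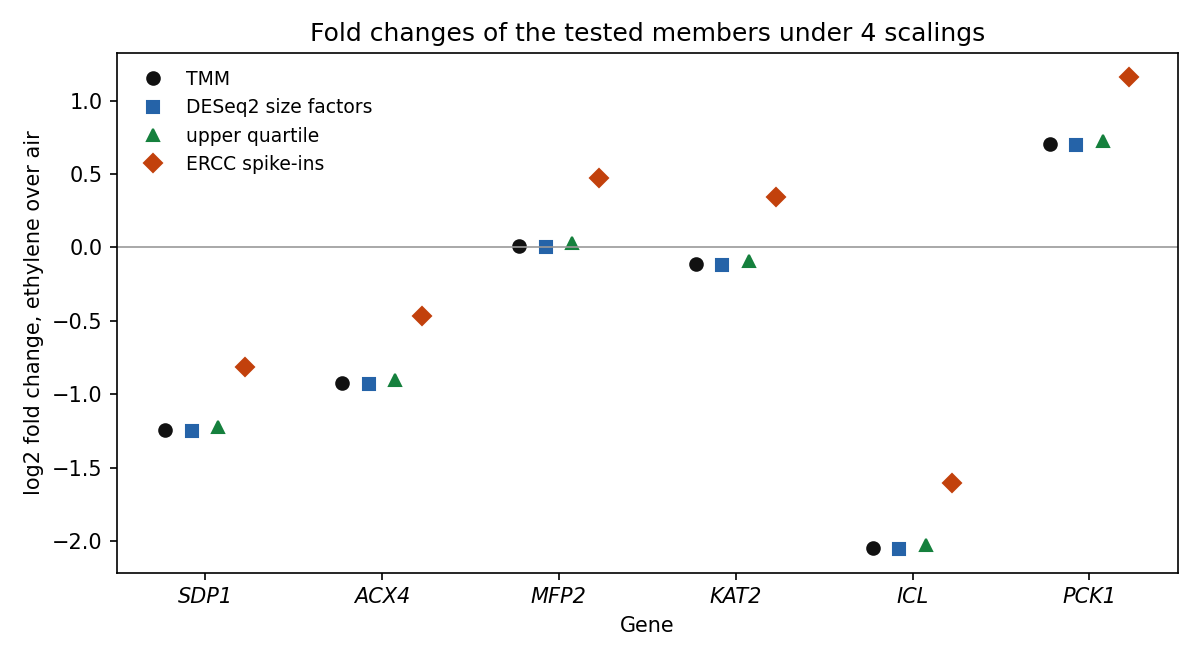
Log2 fold change of ethylene over air for the 6 tested members with TMM factors, DESeq2 size factors, upper-quartile factors and ERCC spike-in scaling. The first 3 nearly coincide, and spike-in scaling raises every member by about the same amount, which puts ACX4 at -0.47 and MFP2 at 0.47.

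The rest of the route was described with lists of its known genes. For lipid droplets and lipases, 10 of 17 loci were tested, of which 3 rose and 1 fell on the TMM scale. Over all loci tested, 15.8% rose and 16.8% fell. The list's median log2 fold change was -0.01. The seed oleosin gene OLEO1, whose protein coats the lipid droplets of seeds, had 0 counts in all 6 libraries, and OLEO2 had 1 count in ethylene and 14 in air. AT3G14360, annotated as an alpha/beta-hydrolase, rose by 1.49 ± 0.20 (SE, n = 3 per group; edgeR adjusted p = 0.000462), at 8.97, 7.61 and 6.87 CPM in the ethylene libraries, against 2.69, 2.95 and 2.67 CPM in the air libraries. AT2G47780, annotated as a rubber elongation factor protein, rose by 2.00 ± 0.39, with 166 counts in ethylene and 33 in air. AT1G67360, with the same annotation, rose by 0.74 ± 0.23 (edgeR adjusted p = 0.0311), a call lost without air replicate 1, 2 or 3 or ethylene replicate 2 (edgeR adjusted p from 0.0619 to 0.129) and with its most abundant transcript alone (0.55, edgeR adjusted p = 0.0985). AT5G16550 fell by 0.48 ± 0.11 on the TMM scale, a call lost with spike-in scaling (-0.01). AT4G10790, annotated as a UBX domain protein, was the most abundant locus of the list, at 137 ± 6.08 CPM in ethylene and 156 ± 5.08 CPM in air (SD, n = 3 each), and did not pass the test.

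For acyl activation and auxiliary beta-oxidation, 13 of 14 loci were tested, of which 4 fell and 1 rose on the TMM scale. The shares over all loci tested were 16.8% lower and 15.8% higher. The list's median log2 fold change was 0.07. SDRB, a dienoyl-CoA reductase for unsaturated chains, fell by 0.66 ± 0.09, and IBR10, an enoyl-CoA isomerase, fell by 0.64 ± 0.09. LACS7, an acyl-CoA synthetase of the peroxisome, fell by 0.41 ± 0.08, while its partner LACS6 had 0.07 ± 0.08 and did not pass. MDAR4, which protects the peroxisome membrane against hydrogen peroxide, was the most abundant of the list at 291 ± 23.0 CPM in ethylene and 371 ± 23.0 CPM in air (SD, n = 3 each), and fell by 0.35 ± 0.09. IBR1, a dehydrogenase that acts on the auxin precursor indole-3-butyric acid, rose by 0.40 ± 0.10. The 4 falls were lost with spike-in scaling, where LACS7 and MDAR4 had 0.04 and 0.11. On that scale 9 loci of the list were higher, as were 7160 of all 17887 loci tested.

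For partners in the glyoxylate cycle and acetate use, 10 of 11 loci were tested and 2 rose on the TMM scale, against 15.8% of all loci tested. The list's median log2 fold change was -0.02. PMDH1, a peroxisomal malate dehydrogenase, rose by 0.43 ± 0.10 (SE, n = 3 per group; edgeR adjusted p = 0.00797), at 210, 193 and 167 CPM in the ethylene libraries, against 147, 146 and 131 CPM in the air libraries. ACN1, the acetyl-CoA synthetase that feeds acetate into the cycle, rose by 0.31 ± 0.09. Leaving out either of the air replicates 1 and 3, or either of the ethylene replicates 1 and 2, ended the ACN1 call (edgeR adjusted p from 0.0554 to 0.0767), which left 1 locus of the list called. The peroxisomal citrate synthases CSY2 and CSY3, which join acetyl-CoA to oxaloacetate, had -0.16 ± 0.08 and -0.09 ± 0.09 and did not pass. The cytosolic malate dehydrogenase CMDH1 was the most abundant, at 1430.4 ± 87.6 CPM in ethylene and 1434 ± 26.6 CPM in air (SD, n = 3 each). With spike-in scaling 6 loci of the list were higher, as were 7160 of all 17887 loci tested.

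For carbon export and gluconeogenesis, 4 of 5 loci were tested, of which 1 rose and 1 fell on the TMM scale. The shares over all loci tested were 15.8% higher and 16.8% lower. SFC1, the mitochondrial carrier that exchanges succinate from the glyoxylate cycle for fumarate, rose by 1.05 ± 0.19 (SE, n = 3 per group; edgeR adjusted p = 0.00222). It had 25.5, 20.4 and 23.5 CPM in the ethylene libraries, against 12.0, 13.5 and 8.01 CPM in the air libraries. CYFBP, cytosolic fructose-bisphosphatase, which works in gluconeogenesis and in sucrose synthesis, fell by 0.91 ± 0.09 (SE, n = 3 per group; edgeR adjusted p = 7.63e-05), with 332, 347 and 309 CPM in the ethylene libraries, against 607, 565 and 679 CPM in the air libraries. Both calls held with spike-in scaling. Within this short route PCK1 and SFC1 were thus higher while ICL and CYFBP were lower.

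Peroxisome biogenesis genes, whose products build the organelle and import its enzymes, were the longest list. On the TMM scale 12 of 23 tested loci fell and the other 11 did not pass, whereas 16.8% of all loci tested fell. The median log2 fold change was -0.32, against 0.02 over all loci tested. Scaling on spike-ins left PEX11D lower, made PEX11A higher and gave a median of 0.12, against 0.47 over all loci. The list's median lay below that of all loci on both scales. Since spike-in scaling moves all loci by about the same amount, the second of these is no separate result. LON2, a peroxisomal protease, fell by 0.85 ± 0.09, at 177, 166 and 168 CPM in the ethylene libraries, against 294, 278 and 347 CPM in the air libraries. The LON2 call was lost with spike-in scaling (-0.39, edgeR adjusted p = 0.0726). PEX13 and PEX14, which dock import receptors at the membrane, fell by 0.69 ± 0.08 and 0.78 ± 0.12, and neither call held with spike-in scaling. PEX11D, one of the proteins that make peroxisomes elongate and divide, fell by 1.12 ± 0.21 with TMM factors, and its value was -0.69 with spike-in scaling. PEX5 and PEX7, the receptors for the 2 kinds of peroxisomal targeting signal, fell by 0.42 ± 0.09 and 0.29 ± 0.09 with TMM factors, against values of 0.03 and 0.17 with spike-in scaling. The PEX7 call was also lost with DESeq2 (adjusted p = 0.0512), with no filter on low counts (edgeR adjusted p = 0.0603) and without air replicate 1, ethylene replicate 2 or ethylene replicate 3 (edgeR adjusted p from 0.0882 to 0.112). The count of loci that fell was 9 to 12 when 1 library was left out.

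**Figure D4:**
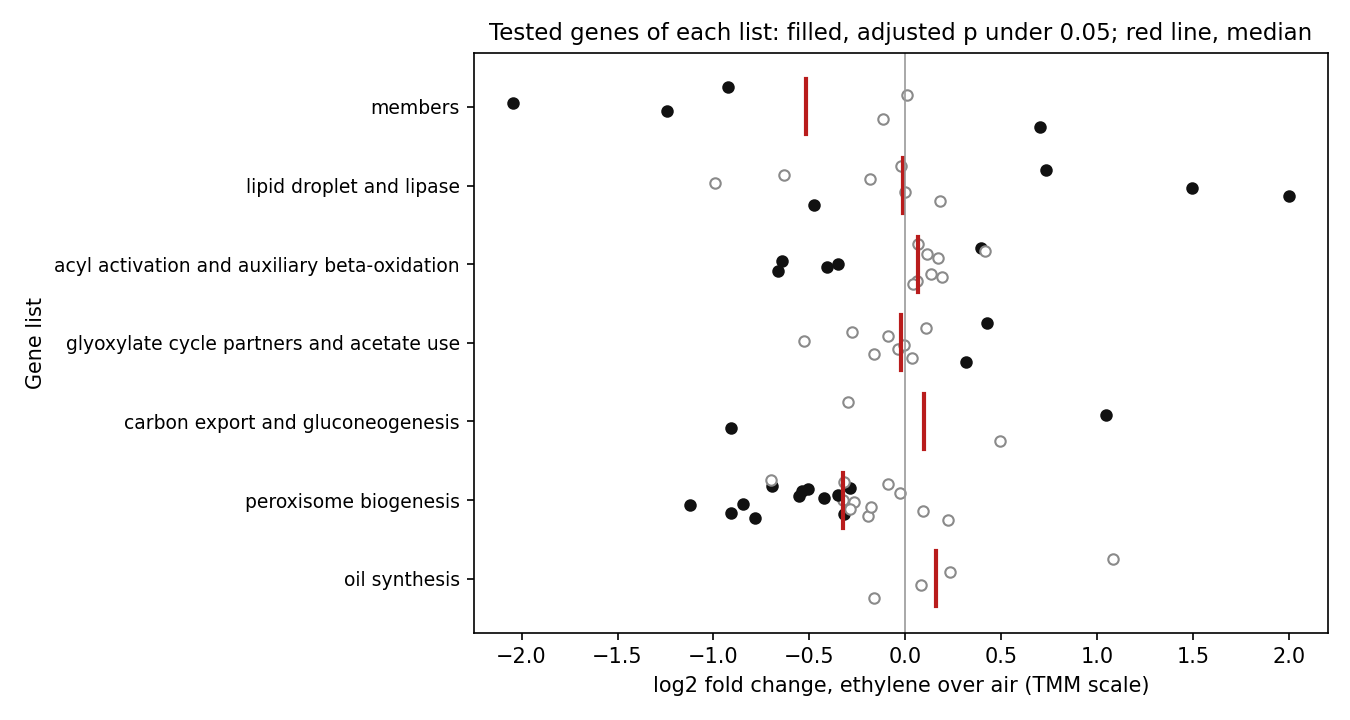
Log2 fold change of ethylene over air on the TMM scale for every tested gene of 7 groups, filled where the adjusted p was under 0.05, with the group's median as a red line. Peroxisome biogenesis genes lie mostly left of 0 with a median of -0.32, against 0.02 over all loci tested. With spike-in scaling, not drawn here, which moves all loci by about the same amount, their median is 0.12, against 0.47 over all loci. The median of partner genes of the glyoxylate cycle is -0.02 on the TMM scale.

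For oil synthesis, the reverse of fat breakdown, none of the 4 tested loci passed edgeR's adjusted test, and DESeq2 called 0. Of these 4, 2 had an unadjusted edgeR p under 0.05, as had 7686 of all 17887 loci tested. DGAT1 and DGAT2, which make triacylglycerol from diacylglycerol, had 0.08 ± 0.09 and 0.23 ± 0.09, and WRI1, an activator of fatty acid synthesis in seeds, had 1.08 ± 0.47. DGAT2 was called at 0.26 when only loci with a mean of 5 CPM were kept (edgeR adjusted p = 0.0428). With spike-in scaling DGAT1 (0.54), DGAT2 (0.70) and WRI1 (1.55) were called higher, as were 7160 of all 17887 loci tested.

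Markers of seed and root were also counted. Of the 8 seed storage genes 2 could be tested and both were called. Of the 6 root markers all were tested and 1 was called. Over all loci tested the share called was 32.6%. Of 8 seed storage genes, SESA3, CRA1 and CRC had 0 counts in every library, and the list summed to between 21.3 and 33.8 CPM in ethylene libraries, against 0.152 to 7.66 CPM in air libraries. Nearly all of this came from the albumin genes SESA2 and SESA5, which had 372 and 236 counts in ethylene replicate 3 and 1 count each in air replicate 3. Both albumin genes were called higher by edgeR, SESA2 by 2.07 ± 0.62, a call lost with DESeq2 (adjusted p = 0.216) and without ethylene replicate 1, 2 or 3, and SESA5 by 3.41 ± 0.52. The 6 root hair and endodermis markers summed to between 118 and 148 CPM in ethylene libraries, against 44.5 to 118 CPM in air libraries, and air replicate 3 was again lowest. Of these 6, CASP2 was called, at 0.85 ± 0.23, and the call was lost without air replicate 1 or ethylene replicate 1. CASP1, the most abundant of them, had 60.4 ± 4.88 CPM in ethylene and 35.8 ± 15.9 CPM in air (SD, n = 3 each) and did not pass (edgeR adjusted p = 0.0507). The part of these differences in the members' changes was not tested. Without air replicate 3, ICL, SDP1, ACX4 and PCK1 were still called in the same directions.

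The loci whose levels followed the members most closely across the 6 libraries were taken by Pearson correlation of log2 CPM over 11150 loci with a mean of at least 5 CPM. Since the libraries fall into 2 groups, any locus with a clean difference between groups scores high, so these values are descriptions with no test. ICL was followed most closely by LBD39, a transcription factor gene that responds to nitrate (r = 0.9991), and SOUL-1 (r = 0.9986), and ACX4 by AT2G35260 and AT1G78140 (r = 0.9999 each). PCK1 was followed by AT2G38550 (r = 0.9994) and by the mitotic cyclin gene CYCB1;1 (r = 0.9993), which had a log2 fold change of 1.47. SDP1 was followed by CYP71B36 (r = 0.9985) and ATHM2 (r = 0.9978). MFP2 was followed by CCT2 (r = 0.9763) and PAO2 (r = 0.9608), and KAT2 by AT1G06730 (r = 0.9873) and AT3G45900 (r = 0.9869), none of them called.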

How the data were processed

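RNA-seq was done on 6 seedling samples, 3 per group. The authors deposited whole-number read counts per transcript for 54013 plant transcripts and 92 ERCC spike-in RNAs. The authors' deposited table also gives, for each transcript, a log2 fold change, its p-value and an adjusted one, per the file headers. Its per-sample columns hold a signal, the deposited counts divided by 1 factor per sample. There the names of air replicates 1 and 3 are exchanged relative to the count files, and which naming is right is not known, which leaves the contrast between groups as it is. Aligner, counting program, build and use of strand are not given in the sources used here. Of 53688 numbered transcript identifiers, 99.2% are in the RefSeq annotation of TAIR10.1, from which promoter positions, sequences and transcript lengths were taken. RefSeq gene names matched 32548 of 32833 loci.

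Counts were summed to loci, with spike-ins left out. Plant counts ranged from 12870604 to 17116359 per library, so 1 count was 0.0584 to 0.0777 CPM. Chi-square per degree of freedom between replicates was 5.01 to 26.6, so none agreed within sampling noise. The test was edgeR 4.0.16 in R 4.3.3 (glmQLFit, glmQLFTest, group alone), with TMM factors and the default filterByExpr filter (at least 10 counts, 15 in total). SE was derived from the fold change and the F value. DESeq2 1.42.0, other factors, other filters, a replicate block, the most abundant transcript alone and leaving out each library were alternatives. The members, 9 lists with 100 loci and tests were chosen with earlier results of these data known. Of the 8 members, 1 is not reported here. Named were all other members, the paralogs, up to 3 called loci with the smallest p and the most abundant locus of each list, the 2 loci most like each member, and others picked after their values were seen (those of the lipid droplet, oil and seed lists that had few counts or did not pass, LACS6, IBR1, CSY2, CSY3, PEX5, PEX7, PEX11A, PEX11D, AT1G67360, and ACO3, PEX6 and PEX22 for a change of sign).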

Additional observations from a re-analysis of the deposited data

How the results depend on the processing

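SDP1, ACX4, ICL and PCK1 kept their direction and their call under all 13 alternatives run, at 0.0289 or less in adjusted p by edgeR or DESeq2. When 1 library was left out, the log2 fold change ranged from -1.53 to -1.01 for SDP1, -2.18 to -1.92 for ICL and 0.59 to 0.73 for PCK1. KAT2 was called under none of them. MLS entered the test only with no filter on low counts.

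Spike-in scaling, by its construction a shift of all loci, changed most. Of all 17887 loci tested, it gave 7160 higher and 829 lower. Against that share, it gave 2 members higher, with MFP2 at 0.47, and 6 paralogs and 9 acyl activation loci higher. Also higher with it were 6 glyoxylate partners, 1 peroxisome locus, 3 oil synthesis loci and 6 root markers. With it 0 lipid droplet loci, 0 acyl activation loci and 1 peroxisome locus were lower. Among the genes called with TMM or with spike-in scaling, the log2 fold changes that turned positive were 0.042 for LACS7, 0.11 for MDAR4, 0.43 for ACO3, 0.46 for CMDH1, 0.033 for PEX5, 0.13 for PEX6, 0.17 for PEX7 and 0.11 for PEX22. With a minimum mean of 5 CPM, 0 paralogs and 1 oil synthesis locus were higher. DESeq2 called 1 seed storage gene and 2 root markers higher, upper-quartile factors 2 root markers, and no filter on low counts 3. The causes of the last 4 were not tested.

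When 1 library was left out, the number of loci called higher was 0 to 1 among paralogs, 1 to 2 among glyoxylate partners, 1 to 2 among seed storage genes and 0 to 3 among root markers, and the number lower was 1 to 2 among lipid droplet loci. Replicate numbers showed no clear pairing of the samples: deviations of same-numbered libraries correlated at 0.06, -0.12 and 0.20, and not every library correlated best with its own number. Pairing was not tested, and the names of air replicates 1 and 3 are in doubt. The replicate block gave 2767 loci higher and 2807 lower, and 3 root markers higher, and changed no call among the members, while AT1G67360 (adjusted p = 0.0509) and PEX7 (adjusted p = 0.0552) were not called by edgeR with it. Low counts limit MLS, SDP1L and PCK2.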
